A study of Homo sapiens with 2 samples.

Results

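Collagen chain genes and the genes whose products modify, chaperone or bind collagen were examined in human corneal epithelial cells, an established cell line (ATCC CRL-11515), after culture in either of 2 media. The set holds every gene whose symbol has the form of a collagen chain (COL, a type number, A and a chain number), 44 genes, and 13 named genes of collagen hydroxylation, cross-linking and folding together with SPARC. These make 57 of the 26506 genes in the deposited tables.

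One group was grown in keratinocyte serum-free medium (KSFM), whose supplements the labels do not list. The other was grown in DMEM/F12 carrying 10% serum from fetal cattle, calcium chloride at 1 mM, EGF at 10 ng/mL, and antibiotic with antimycotic, called here, as in the labels, the special medium. Cells of both groups were kept at 37 degrees in CO2 and cultured for 72 hours before RNA was taken, and the labels state no genotype or agent beyond the medium. RNA from 3 cultures was pooled per medium into 1 poly(A) library, so there is no spread between cultures, no test and no p-value, and the media differ in several components at once, whose parts cannot be told apart. The libraries hold 21604652 counts (KSFM) and 16900472 counts (special medium).

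Collagens are trimers of chains that carry long runs in which every position of a fixed period is glycine. Chains are hydroxylated on proline and lysine in the endoplasmic reticulum, folded with the help of chaperones, secreted, trimmed, and then cross-linked outside the cell by lysyl oxidases. Fibrillar collagens form the cords of the stroma, fibril-associated collagens sit on the surface of such cords, and type IV collagen builds the sheet of the basement membrane. In the corneal epithelium, type XVII collagen belongs to the hemidesmosome and type VII collagen forms the anchoring fibrils beneath it.

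The cells carried RNA of general epithelial markers, with EPCAM at 266 CPM (counts scaled to library size) in the KSFM library and 350 CPM in the other, and CDH1 at 507 and 405 CPM. KRT7, KRT5 and KRT18 were present without a 2-fold difference, while KRT8, KRT19 and CLDN4 were higher in the special medium, KRT8 at 379 and 1054 CPM. Of 15 epithelial markers 11 reached 1 CPM in each library. KRT14, with 4 and 10 counts, and TP63, with 5 and 13, were among those that did not. Corneal keratin genes were not detected beyond 1 read: KRT12 had 0 counts in both libraries and KRT3 had 0 and 1. PAX6, a transcription factor of the eye, had 69 and 73 counts. Of 12 fibroblast and keratocyte markers 5 reached 1 CPM in each library, their summed level was 40.1 and 45.4 CPM, and THY1, LUM, KERA and DPT had 0 counts in both. In that list FAP was higher in the special medium (4.63 and 16.4 CPM), VIM was lower (16.6 and 5.02 CPM), and ACTA2 had 7.97 and 15.8 CPM. Whether any such cells were present in this cell line, and their part in the collagen values, was not tested. Of 5 endothelial markers none reached 1 CPM in KSFM and CDH5 alone did in the special medium, at 13.9 CPM. The myeloid marker CD68 had 57 and 59.8 CPM. Of the same 6 immune markers 2 reached 1 CPM in each library, CD14 having 2 and 62 counts and LYZ 48 and 11, so that 1 was higher and 1 lower. The part of these markers in the collagen values was not tested either. Bulk RNA cannot separate fewer cells of a type from less RNA per cell.

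Promoter sequences from RefSeq (GRCh38.p14) are shown for 4 members that differed at least 2-fold between the media, picked with their values known, and later for both pairs of type IV genes that were expressed and are transcribed away from each other. RefSeq windows matched 43 of the 57 genes. Each sequence is the 250 bases before the most upstream RefSeq start, read 5′ to 3′ on the strand of the gene. Capitals mark matches, on either strand, to the TATA box letters TATAAA, to the CCAAT box letters CCAAT, to the GC box letters GGGCGG and to ACGTG (the core of hypoxia-response elements, also contained in the CACGTG form of the E-box). Among 35116 RefSeq windows of the same length, 10.7% held the TATA box letters, 32.0% those of the CCAAT box, 42.6% those of the GC box and 18.5% held ACGTG.
COL13A1 (chr10:69801656-69801905, plus strand), the largest ratio among members called higher: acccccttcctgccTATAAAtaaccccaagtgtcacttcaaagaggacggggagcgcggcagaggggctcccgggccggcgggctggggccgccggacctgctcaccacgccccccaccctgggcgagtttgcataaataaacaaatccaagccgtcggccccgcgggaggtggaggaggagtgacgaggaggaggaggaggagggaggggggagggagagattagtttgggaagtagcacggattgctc
COL12A1 (chr6:75206054-75206303, minus strand), the fibril-associated gene with the largest ratio: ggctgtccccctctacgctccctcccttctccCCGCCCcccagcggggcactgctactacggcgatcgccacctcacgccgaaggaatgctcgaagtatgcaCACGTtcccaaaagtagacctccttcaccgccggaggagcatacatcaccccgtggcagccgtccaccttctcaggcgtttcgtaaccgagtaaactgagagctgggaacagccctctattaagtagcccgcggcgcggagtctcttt
LOX (chr5:122078260-122078509, minus strand), a lysyl oxidase higher in the special medium: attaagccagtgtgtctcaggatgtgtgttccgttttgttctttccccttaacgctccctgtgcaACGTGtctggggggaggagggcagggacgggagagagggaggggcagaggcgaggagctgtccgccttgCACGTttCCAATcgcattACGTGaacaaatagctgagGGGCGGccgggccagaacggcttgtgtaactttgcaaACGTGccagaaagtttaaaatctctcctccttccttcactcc
COL6A3 (chr2:237414165-237414414, minus strand), lower in the special medium: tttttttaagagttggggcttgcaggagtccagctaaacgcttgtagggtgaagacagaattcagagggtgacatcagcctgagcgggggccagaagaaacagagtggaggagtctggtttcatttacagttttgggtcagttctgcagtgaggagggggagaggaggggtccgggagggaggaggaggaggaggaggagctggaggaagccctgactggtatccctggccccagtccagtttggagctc

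The LOX window held 4 matches to ACGTG, 1 to CCAAT and 1 to GGGCGG, the COL13A1 window 1 match to TATAAA, and the COL12A1 window 1 match each to GGGCGG and ACGTG. The COL6A3 window held none of the 4 motifs. A match describes letters in the window and is not evidence of a bound factor.

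Of the 57 genes, 34 passed a filter of at least 1 CPM in either library, and 23 did not. A gene was called higher or lower in the special medium when it passed that filter, differed at least 2-fold, and had an exact 95% interval excluding equality, an interval that covers counting error only. By this rule 7 members were higher, 2 were lower and 25 were neither. The higher share was 20.6% of the 34, beside 9.86% of all 13632 genes that passed the same filter. The lower share was 5.88%, beside 6.77% of all such genes. The median log2 ratio was 0.36 over the 34 members and 0.00 over all genes. One of the 34, COL5A2, passed the filter in KSFM alone, so its place among the lower genes is partly set by the filter.

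**Figure D1:**
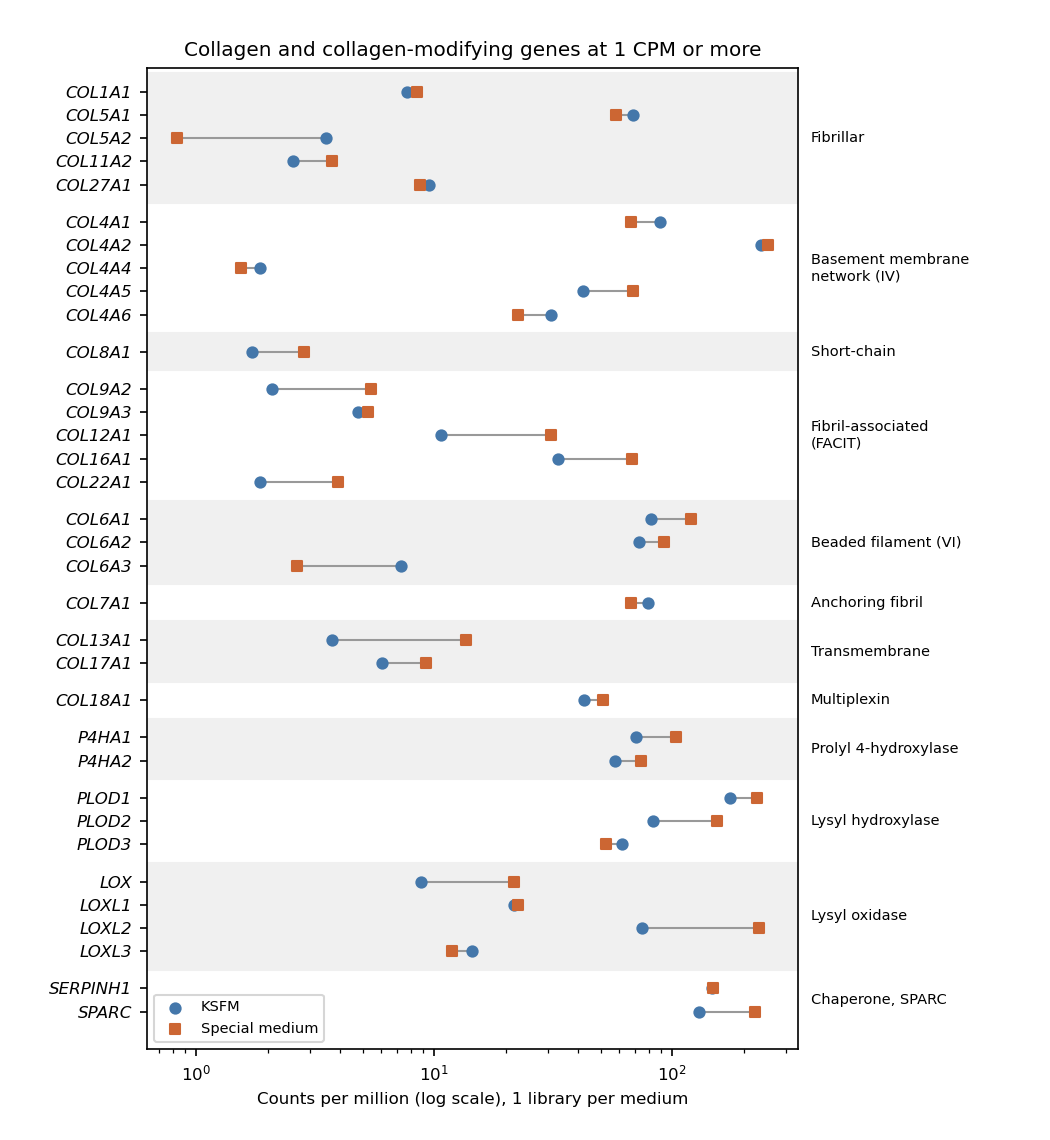
Level of each of the 34 members at 1 CPM or more, in CPM on a log axis, in KSFM (blue circles) and the special medium (orange squares), with 1 pooled library each and grey bands separating groups. COL4A2 is the collagen chain at the highest CPM in both media (237 and 253), and the widest gaps between media belong to COL5A2, COL13A1, LOXL2 and COL12A1.

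All collagen chains together held 0.0840% of counts in KSFM (exact 95% interval 0.0828 to 0.0852) and 0.0966% in the special medium (0.0952 to 0.0981). This is a 1.15-fold higher share, or 0.20 on the log2 scale. A fitted trend on transcript length was positive for abundant chains, at 0.14 for COL4A2 and 0.16 for COL6A1 on that scale. With the trend removed, the log2 ratio of COL4A2 was −0.04 in place of 0.10. The share was not recomputed without this trend, so the part of the trend in the rise was not tested. Summed TPM, a level per transcript length, was 273 in KSFM and 366 in the special medium, so the collagen sum was higher in the special medium on both scales. The TPM scale itself moved the median gene upward by 0.15 to 0.16 on the log2 scale. Collagen-modifying genes held 0.0844% of KSFM counts and 0.127% of those from the special medium.

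Type IV chains made up the largest part of collagen RNA, 42.9% of collagen TPM in KSFM and 36.8% in the special medium. Beaded-filament type VI genes followed with 28.9% and 32.4%. Fibril-associated genes held 6.82% and 11.3%, and fibrillar genes 7.99% and 5.77%. Between the media, then, fibril-associated genes took a larger part of collagen RNA and fibrillar genes a smaller one.

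The fibril-associated collagens with interrupted triple helices (FACITs) had 10 genes, of which 5 passed the filter and 4 of these were higher in the special medium (80%, beside 9.86% of all genes). That count was 1 on centred TPM and 1 with an interval wholly beyond 2-fold. It was 2 with the length trend removed or a filter of 10 CPM, and 0 with a 4-fold rule. The share of all genes was not computed under these settings. Products of FACIT genes lie along fibrils of types I and II or in matrix next to basement membranes. The group's median log2 ratio was 1.10.

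COL12A1, whose chain decorates type I fibrils, had 231 counts (10.7 CPM) in KSFM and 521 counts (30.8 CPM) in the special medium. It was 2.88-fold higher (2.46 to 3.37). On GRCh38 it spans chr6:75084326-75206051 in GENCODE release 29.

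COL16A1, which encodes a FACIT found near basement membranes and in dermal matrix, had 717 counts (33.2 CPM) and 1146 counts (67.7 CPM). It was the FACIT gene at the highest level in both media, with 11.1 and 25.3 TPM. Its ratio of 2.04-fold (1.86 to 2.24) stood close to the limit of the rule. The call was lost on centred TPM, at a log2 ratio of 0.97, and after removal of a trend on transcript length, at 0.88. COL16A1 lies at chr1:31652247-31704319.

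The type IX genes divided. COL9A2 had 45 counts (2.09 CPM) in KSFM and 92 counts (5.44 CPM) in the special medium, 2.61-fold higher (1.81 to 3.81). On centred TPM with a pseudocount of 1 its log2 ratio was 0.94, short of 2-fold. COL9A3, which encodes a partner chain of the same trimer, had 103 counts (4.77 CPM) and 89 counts (5.26 CPM), a ratio of 1.10-fold (0.820 to 1.48). The third chain gene, COL9A1, had 0 counts in both libraries. The ratio of COL9A2 to COL9A3 counts, which needs no library scaling, was 2.36 times as high in the special medium (exact 95% interval 1.46 to 3.84). In TPM, COL9A2 stood at 1.40 beside 3.67 for COL9A3 in KSFM, and at 4.11 beside 4.56 in the special medium.

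COL22A1, a FACIT of tissue junctions such as that between muscle and tendon, was scarce, with 40 counts (1.85 CPM) and 67 counts (3.96 CPM). Its 2.14-fold ratio (1.42 to 3.24) lost the call on TPM with a pseudocount of 1 (log2 ratio 0.58) and after removal of the length trend (0.96). The other 5 FACIT genes were below the filter: COL9A1, COL14A1, COL20A1 and COL21A1 had 0 counts in both libraries and COL19A1 had 1 and 0. A count of 0 allows up to about 3 counts, or 0.139 CPM for KSFM cells and 0.177 CPM for those in the special medium.

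**Figure D2:**
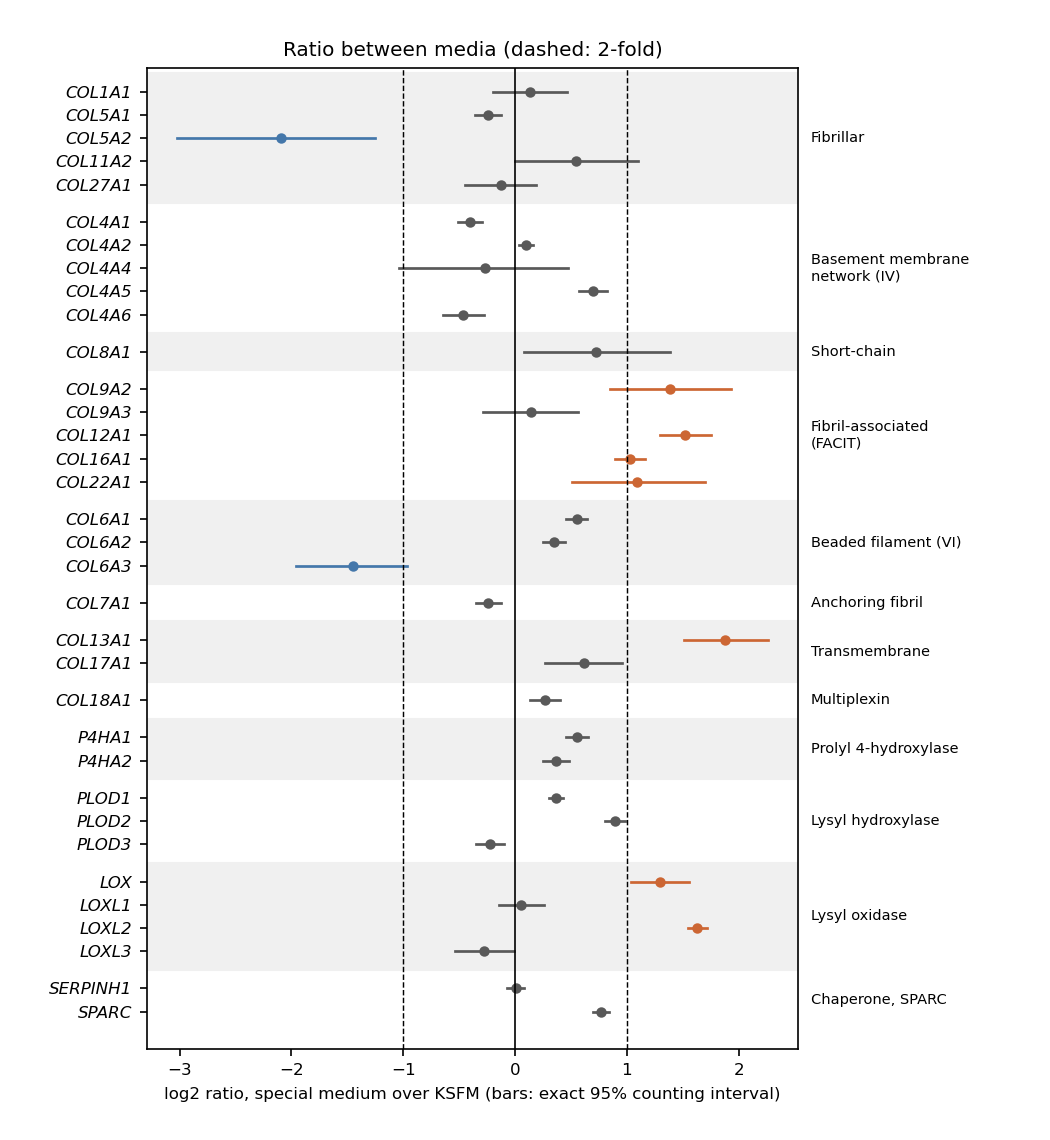
Log2 ratio of special medium over KSFM for the same 34 members, with exact 95% counting intervals as bars. Orange marks genes called higher, blue genes called lower, grey neither, and dashed lines mark 2-fold. Of the 5 FACIT genes 4 lie beyond the upper line, and COL5A2 and COL6A3 lie beyond the lower one.

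Among transmembrane collagens, COL13A1 had the largest ratio of the 7 members called higher. Its product is a transmembrane collagen of cell contacts with matrix. It had 80 counts (3.71 CPM) in KSFM and 231 counts (13.7 CPM) in the special medium, 3.68-fold higher (2.84 to 4.81), and 2.39 and 9.94 TPM. The gene lies at chr10:69801867-69964275. COL17A1, the hemidesmosomal collagen of basal epithelial cells, had 130 counts (6.02 CPM) and 156 counts (9.22 CPM), 1.53-fold (1.20 to 1.95), short of the rule. COL23A1 had 0 and 1 counts and COL25A1 had 3 and 0.

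Fibrillar collagen genes were mostly low. Of 11 such genes 5 passed the filter, with 0 higher (beside 9.86% of all genes) and 1 lower (20%, beside 6.77%). COL5A1, a chain of the type V collagen that sets fibril diameter in the cornea, was the most abundant at 15.1 and 14.3 TPM. It had 1480 and 983 counts, a log2 ratio of −0.24 (−0.36 to −0.12). COL5A2, which encodes its partner chain in the common type V trimer, had 76 counts (3.52 CPM) in KSFM and 14 counts (0.827 CPM) in the special medium, 4.26-fold lower (2.39 to 8.15). COL5A2 lies at chr2:189031896-189225312. The ratio of COL5A1 to COL5A2 counts was 3.60 times as high in the special medium (2.01 to 6.94). In TPM, COL5A2 was 5.91% of the sum of both chains in KSFM and 1.72% in the special medium. With a pseudocount of 1 TPM, which exceeds both COL5A2 values of 0.95 and 0.25 TPM, its log2 ratio was −0.64 and the call was lost.

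COL1A1, which encodes the major chain of type I collagen, had 166 counts (7.69 CPM) in KSFM and 143 counts (8.45 CPM) in the special medium, a ratio of 1.10-fold (0.872 to 1.38). COL1A2, its partner in the usual type I trimer, had 1 and 0 counts. RNA of type I collagen thus came almost wholly from 1 of its 2 genes in both libraries, with 2.43 and 2.97 TPM for COL1A1 beside 0.02 and 0 for COL1A2. COL11A2, a chain of a cartilage-type fibrillar collagen, had 55 and 63 counts, 1.46-fold (1.00 to 2.14). COL27A1, a long fibrillar collagen gene, had 205 and 147 counts and a log2 ratio of −0.13 (−0.44 to 0.18). Its TPM values of 2.27 and 2.31 run the other way by a small amount. Below the filter were COL2A1 with 10 and 4 counts, COL3A1 with 2 and 2, COL24A1 with 0 and 1, and COL5A3 and COL11A1 with 0.

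Type VI collagen, which forms beaded filaments around cells, requires 3 chains in its classical form. COL6A1 and COL6A2 were near equal in level, and both stood somewhat higher in the special medium without reaching 2-fold. COL6A1 had 1761 counts (81.6 CPM) and 2022 counts (119.5 CPM), 1.46-fold (1.37 to 1.56). COL6A2 had 1568 counts (72.7 CPM) and 1566 counts (92.6 CPM), 1.27-fold (1.19 to 1.37).

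COL6A3, which encodes the longest of the chains, moved the other way. It had 157 counts (7.28 CPM) in KSFM and 45 counts (2.66 CPM) in the special medium, 2.74-fold lower (1.95 to 3.90), and lies at chr2:237324003-237414375. In TPM it was 1.72% of the sum of the 3 chains in KSFM and 0.472% in the special medium. The ratio of COL6A1 to COL6A3 counts was 4.0 times as high in the special medium (2.84 to 5.75), and that of COL6A2 to COL6A3 was 3.48 times as high (2.47 to 5.00). With a pseudocount of 1 on TPM values of 1.36 and 0.56, the log2 ratio was −0.60 and the call was lost. Genes of other chains that can take its place were not detected beyond 1 read: COL6A5 had 0 and 1 counts and COL6A6 had 0 in both.

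Type IV collagen is encoded by 6 genes that lie in pairs, each pair transcribed in opposite directions from a shared stretch. Of 5 type IV genes past the filter none was called, beside 16.6% of all genes called higher or lower. Members of a pair nonetheless did not keep the same ratio. The sequence between the RefSeq starts of COL4A1 (minus strand) and COL4A2 (plus strand) is 126 bases long, is 80.2% G or C, and held 1 CCAAT and 1 GGGCGG. For COL4A5 and COL4A6 on chromosome X the nearest starts were 379 bases apart. Their windows overlap, and the capitals mark the same motifs as above.
COL4A1 and COL4A2, between the starts (chr13:110307158-110307283, read on the plus strand): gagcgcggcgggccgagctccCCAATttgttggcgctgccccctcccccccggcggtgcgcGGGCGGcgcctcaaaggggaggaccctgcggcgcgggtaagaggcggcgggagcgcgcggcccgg
COL4A5 (chrX:108439588-108439837, plus strand): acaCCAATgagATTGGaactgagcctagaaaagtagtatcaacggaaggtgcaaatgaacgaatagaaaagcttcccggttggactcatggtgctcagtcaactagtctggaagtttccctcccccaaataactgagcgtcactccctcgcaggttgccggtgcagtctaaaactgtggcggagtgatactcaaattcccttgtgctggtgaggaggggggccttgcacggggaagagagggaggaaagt
COL4A6 (chrX:108439459-108439708, minus strand): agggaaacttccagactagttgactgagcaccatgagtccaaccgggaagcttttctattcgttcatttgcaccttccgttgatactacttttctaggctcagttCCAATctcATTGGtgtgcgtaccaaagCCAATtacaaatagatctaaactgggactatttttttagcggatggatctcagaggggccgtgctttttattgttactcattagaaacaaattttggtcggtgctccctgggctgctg

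COL4A5 had 907 counts (42 CPM) in KSFM and 1152 counts (68.1 CPM) in the special medium, 1.62-fold (1.48 to 1.77). COL4A6, on the other side of the shared stretch, had 666 counts (30.9 CPM) and 379 counts (22.4 CPM), a log2 ratio of −0.46 (−0.65 to −0.28). The ratio of COL4A5 to COL4A6 counts was 2.23 times as high in the special medium (1.91 to 2.61). In TPM, COL4A5 made up 58.3% of the pair in KSFM and 75.7% in the special medium. RefSeq lists 2 starts for COL4A6, and the gene-level values do not tell which was used.

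COL4A1 and COL4A2 encode the chains of the most widespread type IV trimer, which holds more of the COL4A1 product than of the COL4A2 product. COL4A2 RNA was nonetheless the higher per length, at 70.6 TPM beside 25.4 for COL4A1 in KSFM and 84.3 beside 21.5 in the special medium. COL4A1 had 1917 and 1139 counts, a log2 ratio of −0.40 (−0.51 to −0.29). COL4A2 had 5108 and 4287 counts, a log2 ratio of 0.10 (0.04 to 0.16). The ratio of COL4A2 to COL4A1 counts was 1.41 times as high in the special medium (1.3 to 1.54).

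The remaining type IV pair was scarce, with 40 and 26 counts for COL4A4 and 7 and 3 for COL4A3. No difference in the ratio of these genes was detectable at this depth (0.663, interval 0.101 to 3.24). In neither expressed pair, therefore, did both genes keep the same ratio within counting error.

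**Figure D3:**
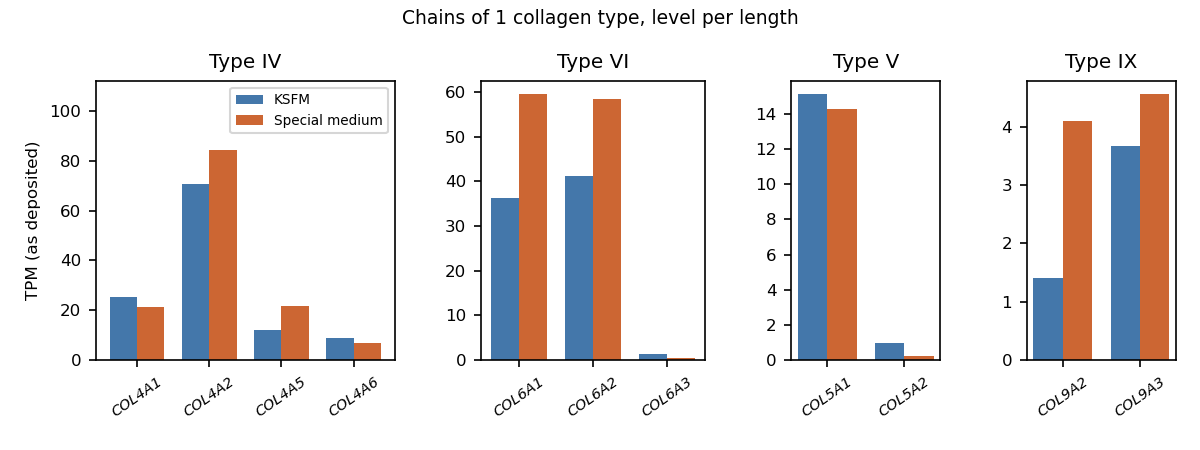
Deposited TPM, a level per length, of chains of collagen types IV (without the scarce COL4A3 and COL4A4), VI, V and IX in KSFM (blue) and the special medium (orange), with 1 pooled library per bar and no error bars. COL4A2 stands above COL4A1 in both media, COL4A5 and COL4A6 move in opposite directions, COL6A3 and COL5A2 are the smallest bars of their types, and COL9A2 approaches COL9A3 in the special medium.

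The anchoring and multiplexin collagens differed little between the media. COL7A1, the chain of anchoring fibrils, had 1708 counts (79.2 CPM) and 1135 counts (67.1 CPM), a log2 ratio of −0.24 (−0.35 to −0.13). COL18A1, whose C-terminal fragment is endostatin, had 920 and 867 counts, 1.20-fold (1.09 to 1.32). COL8A1, of the short-chain collagens that build the sheet under the corneal endothelium, had 37 and 48 counts, 1.65-fold (1.06 to 2.61). Below the filter were COL8A2 with 5 and 2 counts, COL15A1 with 1 and 1, COL28A1 with 0 and 1, and COL10A1 and COL26A1 with 0.

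Of 11 collagen-modifying genes past the filter 2 were higher (18.2%, beside 9.86% of all genes) and 0 lower. Both were lysyl oxidases, the copper enzymes that start cross-linking, of which 4 passed the filter. LOXL2, known for its action on basement membrane type IV collagen, had 1615 counts (74.8 CPM) in KSFM and 3922 counts (232 CPM) in the special medium. It was 3.10-fold higher (2.92 to 3.28), with 37.1 and 128 TPM, and lies at chr8:23297189-23425328. LOX, which cross-links fibrillar collagen and elastin, had 190 counts (8.80 CPM) and 365 counts (21.6 CPM), 2.45-fold higher (2.05 to 2.94), and lies at chr5:122063195-122078360.

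The related genes did not share these ratios. LOXL1, known for elastic fibres, had 465 and 379 counts, 1.04-fold (0.905 to 1.19). LOXL3 had 310 and 201 counts and a log2 ratio of −0.27 (−0.54 to −0.01). LOXL4, with 1 and 7 counts, was below the filter. Relative to LOXL1, LOXL2 counts were 2.98 times as high in the special medium (2.56 to 3.46) and LOX counts 2.36 times (1.88 to 2.96). LOXL2 made up the largest part of lysyl oxidase RNA in both media, and summed TPM of the family was 66.6 in KSFM and 166 in the special medium.

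Lysyl hydroxylases modify lysine so that glycosylation and stable cross-links can form. PLOD2, which acts on the telopeptides, had 1789 counts (82.9 CPM) and 2604 counts (154 CPM), 1.86-fold (1.75 to 1.97). It fell short of the rule on counts and passed it on TPM, with a log2 ratio of 1.04 at a pseudocount of 1. On centred TPM, which takes out the upward move of the median gene, it was 0.89 and again short of the rule, and with the length trend removed it was 0.74. PLOD1 had 3784 and 3825 counts, 1.29-fold (1.23 to 1.35). PLOD3, which also transfers sugars, had 1325 and 889 counts, a log2 ratio of −0.22 (−0.35 to −0.10). Relative to PLOD3, PLOD2 counts were 2.17 times as high in the special medium (1.95 to 2.41).

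Prolyl 4-hydroxylase, whose product stabilises the triple helix, consists of catalytic alpha subunits and a beta subunit, P4HB, which is also a protein disulfide isomerase. P4HA1 had 1522 and 1750 counts, 1.47-fold (1.37 to 1.57), and P4HA2 had 1238 and 1251 counts, 1.29-fold (1.19 to 1.40). P4HA3, with 21 and 8 counts, was below the filter. The beta subunit gene ran the other way, with 30754 counts in KSFM against 12023 for the special medium, 2.01-fold lower (1.96 to 2.05). That call was at the limit of the rule and was lost on TPM, at a log2 ratio of −0.83.

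The 3 alpha subunit genes summed to 9.33% of P4HB TPM in KSFM and 25.5% in the special medium. Relative to P4HB, P4HA1 counts were 2.94 times as high in the special medium (2.74 to 3.16) and P4HA2 counts 2.58 times (2.38 to 2.81). The change in this balance does not depend on how the libraries were scaled.

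SERPINH1, the collagen-specific chaperone of the endoplasmic reticulum also called HSP47, had 3176 counts (147 CPM) and 2501 counts (148 CPM), 1.00-fold (0.953 to 1.06). In TPM it was 45.3% of the collagen sum in KSFM and 38.2% in the special medium. SPARC, a matricellular protein that binds collagen and calcium, had 2805 counts (130 CPM) and 3752 counts (222 CPM), 1.71-fold (1.62 to 1.79), short of the rule.

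Other genes of collagen biology were read as 6 lists. Of 84 genes in them, 66 passed the filter, with 10 higher, 14 lower and 42 neither, or 15.2% higher and 21.2% lower beside 9.86% and 6.77% of all genes. Of these, 6 passed the filter through 1 library alone, the one where they were high: FKBP7, DDR2, OSCAR, MMP9 and BGN among the lower genes and MMP13 among the higher ones. Their calls are partly set by the filter. On TPM with a pseudocount of 1 the lower count was 3. For this setting and the others named for these lists, the share of all genes was not computed. In the list of folding and other modification, 7 of 15 were lower (46.7%, beside 6.77% of all genes) and 1 higher (6.67%, beside 9.86%). The median log2 ratio was −0.68 beside 0.00 over all genes. In this list the lower count was 3 on TPM with a pseudocount of 1 and 3 with an interval wholly beyond 2-fold. It stayed at 7 with the length trend removed. P3H1, P3H3, P3H4, CRTAP, COLGALT1, FKBP10 and TMEM38B were neither, with log2 ratios from −0.68 (TMEM38B) to 0.29 (COLGALT1). HSPA5, the general chaperone BiP, was 4.45-fold lower (4.38 to 4.52). FKBP7, a prolyl isomerase that passed the filter in KSFM alone, was 3.22-fold lower (1.53 to 7.6) on 37 and 9 counts. PPIB, the cyclophilin that catalyses proline isomerisation in collagen, was 2.80-fold lower (2.72 to 2.88).

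P3H2, a prolyl 3-hydroxylase known to act on type IV collagen, was the gene that was higher, with 409 and 829 counts, 2.58-fold (2.29 to 2.92). P3H1, which acts on fibrillar collagen with CRTAP, had 789 and 480 counts, a log2 ratio of −0.37. P3H1 TPM was 2.32 times that of P3H2 in KSFM and 0.701 times in the special medium. This order of the 2 enzymes was thus reversed between the media.

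In the secretion and propeptide list 1 of 14 was higher and none lower (median log2 ratio −0.01). The higher share of 7.14% was near the 9.86% of all genes. ADAMTS3, a procollagen N-proteinase, had 33 and 99 counts, 3.83-fold (2.56 to 5.86), and lost the call on centred TPM at a log2 ratio of 0.91. BMP1, with 571 and 895 counts, was just short of the rule at a log2 ratio of 0.999 (0.846 to 1.15). It was called higher with total count scaling and on TPM with pseudocounts of 1 and 0.1. Of 10 collagen receptors past the filter 1 was higher, near the background share, and 4 were lower (40%, beside 6.77%). The median log2 ratio of these receptors was nonetheless above equality, at 0.33. Their lower count was 0 and 3 on TPM with pseudocounts of 1 and 0.1. It was 2 on centred TPM or with a filter of 10 CPM. CD44, a hyaluronan receptor that also binds collagen, was 2.42-fold higher (2.35 to 2.50). DDR2, a receptor for fibrillar collagen, was 4.63-fold lower (2.43 to 9.74) on 65 and 11 counts, and OSCAR was 2.84-fold lower on 29 and 8 counts, both having passed the filter in KSFM alone. MRC2, an endocytic collagen receptor, was 2.35-fold lower (2.0 to 2.76).

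The list of degradation genes also held the inhibitor genes TIMP1, TIMP2 and TIMP3. Of its 12 genes past the filter 6 were higher (50%, beside 9.86% of all genes) and 1 was lower (8.33%, beside 6.77%). The higher count was 4 with upper quartile scaling, with a filter of 10 CPM or with an interval wholly beyond 2-fold. It was 3 with a 4-fold rule. TIMP1 was 1 of the 6, at 2.02-fold (1.90 to 2.15), while TIMP2 and TIMP3 were neither, at log2 ratios of 0.81 and 0.68. The median log2 ratio, inhibitors included, was 0.91. The gelatinase MMP2 was 8.26-fold higher, the interstitial collagenase MMP1 5.25-fold, MMP13 4.34-fold on 5 and 17 counts, and the collagenolytic cathepsin CTSK 3.61-fold (2.24 to 6.02) on 24 and 68 counts. Of 14 basement membrane partners 1 was higher, the integrin gene ITGB4 at 2.82-fold. Lower was 1 as well, the fibronectin gene FN1 at 2.10-fold (2.07 to 2.13), so each share was 7.14%, near the background. The FN1 call was lost on TPM, at a log2 ratio of −0.90 with a pseudocount of 1. Of 10 collagen-binding proteoglycans only BGN passed the filter, with 43 and 16 counts, 2.11-fold lower (1.16 to 4.01), and it passed in KSFM alone, while the other 9, among them the stromal LUM and KERA, were below it.

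**Figure D4:**
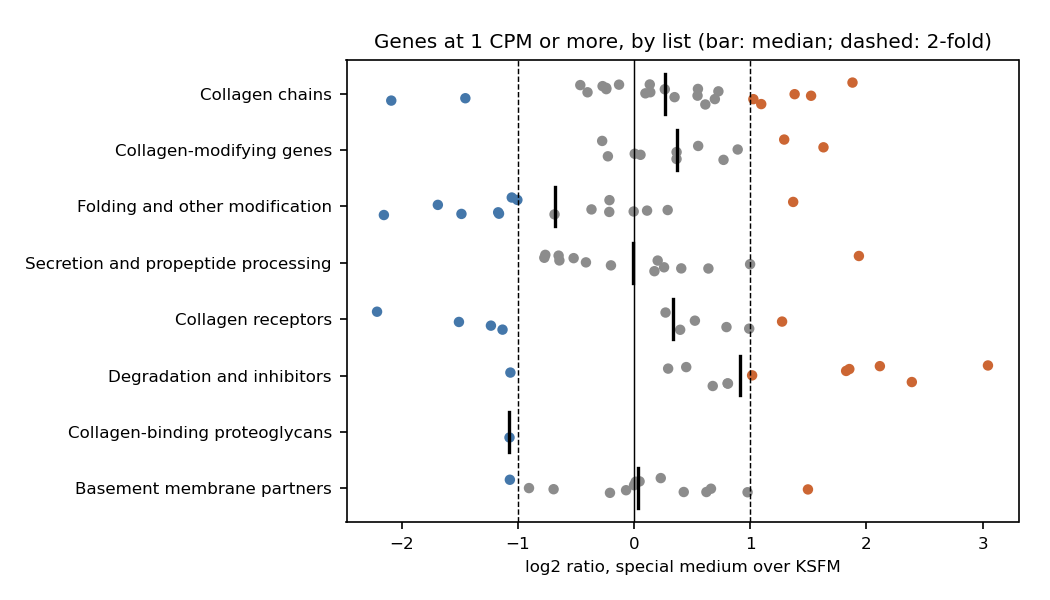
Log2 ratio of special medium over KSFM for each gene at 1 CPM or more in the member groups and in 6 lists of other collagen genes, with black bars at the medians and dashed lines at 2-fold. Orange marks genes called higher, blue lower and grey neither. Of the 6 other lists, that of degradation genes and inhibitors has the highest median (0.91). The folding list has the lowest among those with more than 1 gene (−0.68).

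Counts per TPM, which follow the mean length of the transcripts counted for a gene, were compared between the libraries relative to the median gene. Over the 25 members with at least 100 counts in both libraries this ratio ran from 0.976 in COL12A1 to 1.03 in LOX. The middle 95% of 10697 genes ran from 0.944 to 1.06. No shift in transcript length beyond that range was seen in these members, so their count and TPM ratios differ by nearly the same amount.

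Some members share exon sequence with a neighbour, and the strand setting of the counting is not given in the sources used here. LOXL2 shares up to 120 bases of an exon with ENTPD4 on the same strand, a gene with 1595 and 1090 counts. LOX shares up to 138 bases with SRFBP1 on the opposite strand, which had 617 and 356 counts. Raw counts of both neighbours were smaller in the special medium, whose library is the smaller, and those of LOXL2 and LOX were larger. The part of shared reads in the LOXL2 and LOX ratios was not tested. PLOD3 shares up to 232 bases with ZNHIT1 (663 and 359 counts), COL18A1 up to 1197 bases with SLC19A1 (672 and 388 counts) and COL9A3 up to 45 bases with TCFL5 (888 and 660 counts), all on the opposite strand. Raw counts of PLOD3, COL18A1 and COL9A3 were smaller in the special medium, as were those of their neighbours, but that library is also the smaller. Scaled to library size, PLOD3 was lower, with a log2 ratio of −0.22 (−0.35 to −0.10). COL18A1 was 1.20-fold higher (1.09 to 1.32), and COL9A3 had a ratio of 1.10-fold (0.820 to 1.48). LOXL1, against which LOXL2 and LOX counts were set above, shares up to 133 bases with LOXL1-AS1 (339 and 146 counts). LOXL3 shares up to 159 bases with DOK1 (215 and 270 counts) and up to 529 with HTRA2 (817 and 648 counts). These neighbours too lie on the opposite strand. For neighbours on the opposite strand, shared reads cannot be told apart from a gene's own without the strand setting. For LOXL2 and ENTPD4, on the same strand, that setting would not separate them. Every member had whole-number counts in both libraries, although fractional ones were given for 11.3% (KSFM) and 8.05% (special medium) of all genes.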

How the data were processed

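Poly(A) RNA libraries, 1 per medium and each a pool of 3 cultures, were made with a stranded kit, per the labels' protocols. RSEM, HISAT2 2.1.0, fastp 0.20.0, FastQC 0.11.9 and the GRCh38 build are listed in the submitters' processing notes, without roles. Their order, the annotation and the strand setting were not given in the sources used here. For 26506 genes by symbol, the authors deposited estimated counts and TPM.

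Estimated counts were rounded and scaled by edgeR 4.0.16 TMM library sizes. Each ratio of special medium over KSFM received a 95% interval by the exact Clopper-Pearson method, given the gene's summed counts. Ratios between 2 genes used the exact conditional odds ratio. Where 1 library had 0 counts a floor of 3 counts was used, and no fold is given where both were at or under it. The libraries carry no stated molecular identifiers, and reads that are PCR copies are not independent, so intervals and floors cover only the error of counting. At 100 counts per library an interval reaches 0.41 on the log2 scale to either side, and with 1000 counts 0.13.

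Members and lists were chosen with earlier results of these data known. The rule for named genes takes all members and, per other list, up to 4 with the largest ratios past the call rule. Outside it, with their values known, P4HB, P3H1 and CRTAP were named as partners of members or named genes. MMP9, LUM, KERA, TIMP1, TIMP2 and TIMP3 were named as filter or list examples, and BMP1 as a gene close to the limit of the rule. P3H3, P3H4, COLGALT1, FKBP10 and TMEM38B were named as folding genes that were not called. PAX6, KRT3, KRT14, TP63, CD14 and LYZ were named among the markers. Markers are named at 10 CPM or more, or where they define a cell type and had 0 counts, except 1 that is not reported here. Gene positions are from GENCODE release 29. Alternatives were scaling by total count, by upper quartile or by DESeq2 1.42.0, then TPM at pseudocounts of 1 and 0.1, centred TPM, removal of a cubic trend on effective length, filters of 10 CPM or none, a 4-fold rule, and an interval wholly beyond 2-fold. Work was done in Python 3.11.15 with scipy 1.17.1 and pandas 2.3.3, and in R 4.3.3.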

Additional observations from a re-analysis of the deposited data

How the results depend on the processing

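The share of all genes called was computed under the main rule only, so counts under other settings have no background share beside them. Under total count, DESeq2 and upper quartile scaling 7 members were higher and 2 lower, as in the main count. The number higher was 7 and 8 on TPM with pseudocounts of 1 and 0.1, and 8 without a filter. It was 5 with the length trend removed and 5 with a filter of 10 CPM. It was 4 on centred TPM, 4 with an interval wholly beyond 2-fold and 0 with a 4-fold rule. The length trend was positive in every member past the main filter, from 0.05 (COL12A1) to 0.16 (COL6A1) on the log2 scale. The number lower was 0 on TPM with a pseudocount of 1, centred or not, and 0 with a filter of 10 CPM. It was 1 with a 4-fold rule and 1 with an interval wholly beyond 2-fold. A filter of 10 CPM and the stricter rules leave fewer genes that can be called, and a pseudocount of 1 shrinks ratios of genes near 1 TPM. Of the other pathway genes, 3 were higher with a 4-fold rule, and from 7 (filter of 10 CPM) to 13 (TPM with a pseudocount of 0.1) under the remaining settings. Their number lower was 3 and 7 on TPM with pseudocounts of 1 and 0.1, 8 on centred TPM, 9 with a filter of 10 CPM, 2 with a 4-fold rule and 6 with an interval wholly beyond 2-fold. The log2 ratio of the collagen share was 0.20 on counts, 0.24 without COL4A2 and 0.42 on TPM. By counts COL6A3 made up 4.50% of type VI in KSFM, and 1.24% of it after the special medium, larger than its TPM shares because counts are not per length. Across 700 recomputed gene values, 520 stayed within the main interval, 180 did not, and none of the called values changed sign. No paired analysis was possible because each medium has 1 library. The depth limits most the members under about 100 counts, among them COL5A2, COL9A2 and COL22A1.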
